A study of Mus musculus with 12 samples.

Results

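The genes described here are 37 genes of the unfolded protein response and of the integrated stress response that it shares with amino acid shortage, out of 54232 genes in a table of raw counts per gene. They were taken by name and not by a rule on their values, though with earlier results of these data known. There are 17 genes of the ATF4 amino acid branch, 17 genes of the endoplasmic reticulum (ER) chaperone branch and the 3 stress sensors of the ER membrane, and all 37 passed the filter on low counts. RNA of B16F10, a melanoma line of C57BL/6 mice, was sequenced in 12 libraries, 3 in each of 4 groups. WT cells were cultured and left untreated. The Relapsed group held the lines ITF1, Rel and ITM, which were sorted from tumors that had relapsed after immunotherapy in mice and then grown to confluency in culture, so each library is a different line. Lyso cells were incubated with lysosomes derived from T cells, for 48 h per the labels (the methods of the study give a shorter incubation). Tumor 1, 3 and 4 were sorted by FACS from relapsed tumors, grown under the skin of mice aged 6 weeks at injection and treated by immunotherapy, with RNA extracted at once. The labels do not say which libraries came from separate cultures or animals, so p-values measure the spread between these libraries, which may be technical.

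Misfolded proteins in the ER are sensed by 3 membrane proteins. PERK (Eif2ak3) slows translation and thereby raises the transcription factor ATF4, which other kinases also raise when amino acids are scarce and which drives genes of amino acid uptake and synthesis. IRE1α (Ern1) splices the mRNA of Xbp1, and ATF6 is cut to release a transcription factor. XBP1 and ATF6 drive ER chaperones and the machinery that removes misfolded proteins. Both ATF4 and XBP1 are controlled largely after transcription, so mRNA levels report on their targets more directly than on their activity.

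The targets of both arms carry known promoter elements, and these were read from RefSeq windows of 300 bases (250 before and 50 after the start site, build GRCm38.p6). A window was found for 33 of the 37 members. The composite element bound by ATF4 with C/EBP partners, searched on both strands as TGATGNAA, was in 5 of the 16 windows of the ATF4 branch and in 1 of the 15 windows of the ER branch, against 3.97% of all 32851 windows. The stretches of 30 bases around these matches are printed along the strand of the gene. These 6 genes include Trib3 and Nupr1, which spread widely between libraries as described below. Ppp1r15a did so too, and its window held no match. The rule for printing promoters could not choose among the ATF4 branch, so this set was chosen after the values were seen. Capitals mark the element, which reads TTNCATCA on the opposite strand.
Chac1, chr2:119351038-119351067, plus strand: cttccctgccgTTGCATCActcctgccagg
Trib3, chr2:152344028-152344057, minus strand: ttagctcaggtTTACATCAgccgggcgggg
Slc7a11, chr3:50443661-50443690, minus strand: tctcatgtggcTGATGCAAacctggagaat
Slc7a11, chr3:50443642-50443671, minus strand: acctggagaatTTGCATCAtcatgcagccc
Asns, chr6:7693214-7693243, minus strand: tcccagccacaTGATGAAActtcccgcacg
Nupr1, chr7:126625562-126625591, minus strand: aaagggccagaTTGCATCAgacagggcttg
Herpud1, chr8:94386306-94386335, plus strand: accacggcgggTTGCATCAgcccgcacccc

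The match in Trib3 starts 15 bases into the RefSeq transcript and the others lie before the start site. Herpud1 is the member of the ER branch with this element. The ER stress element, CCAAT and CCACG with 9 bases between them, was in 7 of the 15 windows of the ER branch (Hspa5, Hsp90b1, Pdia6, Calr, Canx, Dnajc3 and Creld2), in 0 of the 16 of the ATF4 branch and in 0.119% of all windows. It is shown for Canx and Creld2, the holders with the smallest p in Tumor against WT, and for Hspa5, chosen afterwards as the best known target, with capitals at both ends of the element.
Canx, chr11:50325789-50325829, minus strand: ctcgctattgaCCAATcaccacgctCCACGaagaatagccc
Creld2, chr15:88819509-88819549, plus strand: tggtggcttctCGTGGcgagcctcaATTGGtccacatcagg
Hspa5, chr2:34772014-34772054, plus strand: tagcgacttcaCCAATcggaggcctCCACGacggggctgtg

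The shorter core TGACGTG was found in the window of Hspa5 alone among the members, and in 2.01% of all windows. A match describes these letters only and says nothing of binding in these cells.

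Counts on genes ran from 1667398 to 16384021 in WT, with WT 1 and WT 2 shallow, from 12749399 to 16402629 in Relapsed, from 10895611 to 12675277 in Lyso and from 3102442 to 5049496 in Tumor. In WT 1, the shallowest library, 3 counts stand for 1.70 CPM (counts scaled by library size and TMM), and in ITM, the deepest, for 0.180 CPM. The lowest count of any member in any library was 3, for Nupr1 in WT 2. Melanocyte markers were above 3 counts in every library for 10 of 10 genes. Their summed level was 20550 to 22660 CPM in Tumor and 19810 to 28450 CPM in WT. In Relapsed it was 23160 to 37430 CPM and in Lyso 29870 to 30650 CPM, so every Tumor library lay below all of these. Fibroblast markers were above 3 counts in all Tumor libraries for 10 of 10 genes, with a summed level of 7707 to 10710 CPM there and of 15.1 to 39.5 CPM in the other 9 libraries, where Col3a1 was at 0 in 8. Summed immediate early genes, which rise within minutes of cell stress or handling, stood at 5005 to 6087 CPM in Tumor and at 373 to 739 CPM elsewhere. Summed myeloid markers were at 51.7 to 76.5 CPM in Tumor and 14.7 to 47.5 CPM elsewhere, and endothelial markers at 49.7 to 54.9 CPM against 2.15 to 23.6 CPM. Summed B and plasma cell markers overlapped between Tumor (55.2 to 104 CPM) and the rest (32.3 to 86.8 CPM), and T cell markers were highest in Lyso, at up to 20.9 CPM against at most 10.6 CPM elsewhere. Of 7 tested B and plasma cell markers, 4 were higher and 0 lower in Tumor against WT (background 12.1% higher). The same counts were found in Lyso against WT (background 3.5% higher). In bulk RNA, fewer cells of a type and less RNA per cell cannot be told apart.

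The untreated library WT 1 stood apart from WT 2 and WT 3 in the ATF4 branch. It was the highest of all 12 libraries for 16 of the 17 ATF4 branch genes, 10 of the 17 ER branch genes and 0 of the 3 sensors, against 15.9% of the 14924 genes tested. Slc7a5 was the exception in the ATF4 branch. The median ratio of WT 1 to the mean of WT 2 and WT 3 was 4.36 in the ATF4 branch and 1.69 in the ER branch, beside 0.99 over all genes tested. Immediate early genes in WT 1 were within the range of the cultured libraries, and its share of counts on mitochondrial genes, 3.75%, was below the 4.05% of WT 2 and the 4.39% of WT 3. With 3 WT libraries, comparisons with WT rest on this library, so each is given with and without WT 1. Leaving out each library was planned, while using the fit without WT 1 as a second account of every comparison was chosen after the data were seen.

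**Figure D1:**
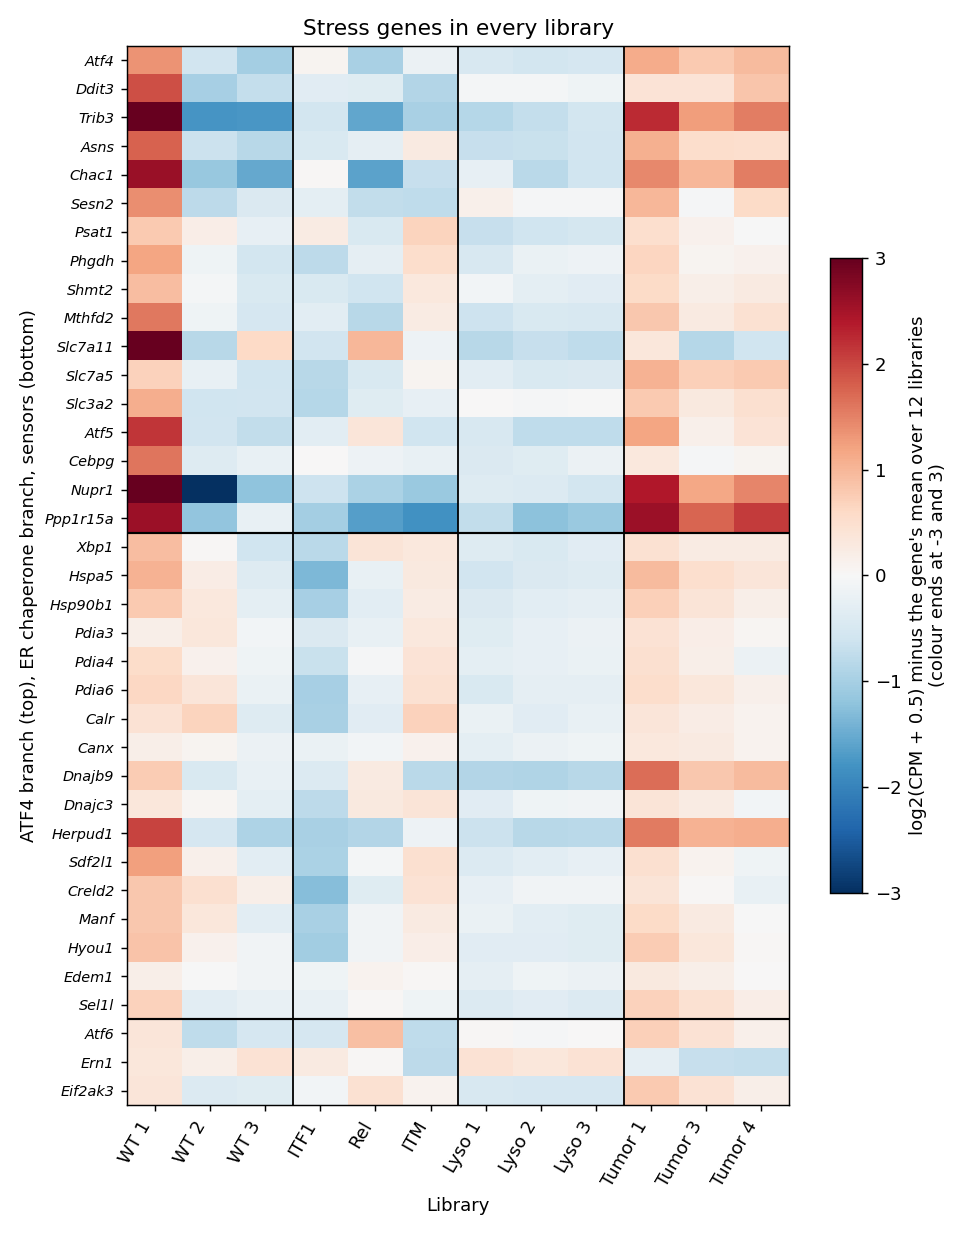
Level of the 37 genes (rows) in the 12 libraries (columns) as log2(CPM + 0.5) minus the gene's mean over the libraries, with black lines between groups and between the ATF4 branch, the ER chaperone branch and the sensors. WT 1 is highest for 16 of 17 genes in the upper block, and the Tumor columns come next for most of them.

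Atf4 (chr15:80255184-80257541, GRCm38), the transcription factor at the head of its branch, was at 1084 CPM in WT 1, 286 in WT 2 and 211 in WT 3. Its levels were 454 in ITF1, 215 in Rel and 380 CPM in ITM, 305, 291 and 298 CPM in Lyso, and 926, 731 and 823 CPM in Tumor. Tumor thus lay above every Relapsed and Lyso library and above WT 2 and WT 3, and below WT 1. Ddit3 (chr10:127290774-127296288), which encodes the pro-apoptotic factor CHOP, was at 208, 26.6 and 32.3 CPM in WT, 41.9, 41.3 and 28.8 CPM in ITF1, Rel and ITM, 51.2, 51.5 and 48.9 CPM in Lyso, and 70.9, 71.3 and 95.1 CPM in Tumor. All Lyso libraries were above WT 2, WT 3 and the Relapsed lines, and all Tumor libraries were above Lyso. Of the exonic bases of Ddit3, 6.1% are shared with a second annotated gene on the same strand that is also named Ddit3. A further 4.7% are shared with genes on the opposite strand, so its counts are to that extent uncertain. A single row of counts was found for 36 of the members. All values given for Ddit3 are those of the entry at the position above, and the other entry was not examined.

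A further 4 targets were low in WT 2 and WT 3 and high in WT 1. Trib3, a pseudokinase that restrains Akt and ATF4, was at 501 CPM in WT 1, 11.0 in WT 2 and 11.2 in WT 3, at 12.9 to 26.1 CPM in the Relapsed lines, at 21.0 to 26.2 CPM in Lyso and at 186, 93.0 and 113 CPM in Tumor. Chac1, which degrades glutathione, was at 131, 9.29 and 6.96 CPM in WT, at 6.63 to 21.7 CPM in Relapsed, at 11.9 to 17.7 CPM in Lyso and at 58.8, 43.1 and 62.6 CPM in Tumor. Nupr1, a small stress-induced chromatin protein, was at 162, 1.27 and 6.37 CPM in WT and at 82.9, 35.0 and 43.3 CPM in Tumor. For these genes the Tumor libraries did not overlap with any Lyso or Relapsed library. Ppp1r15a, the subunit that directs a phosphatase to eIF2α and so restores translation, was at 298, 21.5 and 42.6 CPM in WT, at 13.8 to 24.3 CPM in Relapsed, at 21.0 to 29.3 CPM in Lyso and at 296, 168 and 213 CPM in Tumor. Slc7a11, the cystine importer, did not follow them: WT 1 was at 833 CPM, while Tumor, at 101, 44.5 and 53.4 CPM, overlapped with WT 2 and WT 3 (45.2 and 122 CPM).

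Among the genes of amino acid supply, Asns, which makes asparagine, was at 617, 114 and 100.2 CPM in WT, 132, 149 and 218 CPM in ITF1, Rel and ITM, 111, 114 and 120.1 CPM in Lyso, and 377, 260 and 257 CPM in Tumor. Slc7a5, the LAT1 importer of leucine and other large neutral amino acids, was at 467, 249 and 191 CPM in WT, 161, 210 and 304 CPM in ITF1, Rel and ITM, 230, 211 and 215 CPM in Lyso, and 594, 470 and 493 CPM in Tumor. All Tumor libraries were above all Relapsed and Lyso libraries for both genes, and for Slc7a5 they were also above WT 1.

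**Figure D2:**
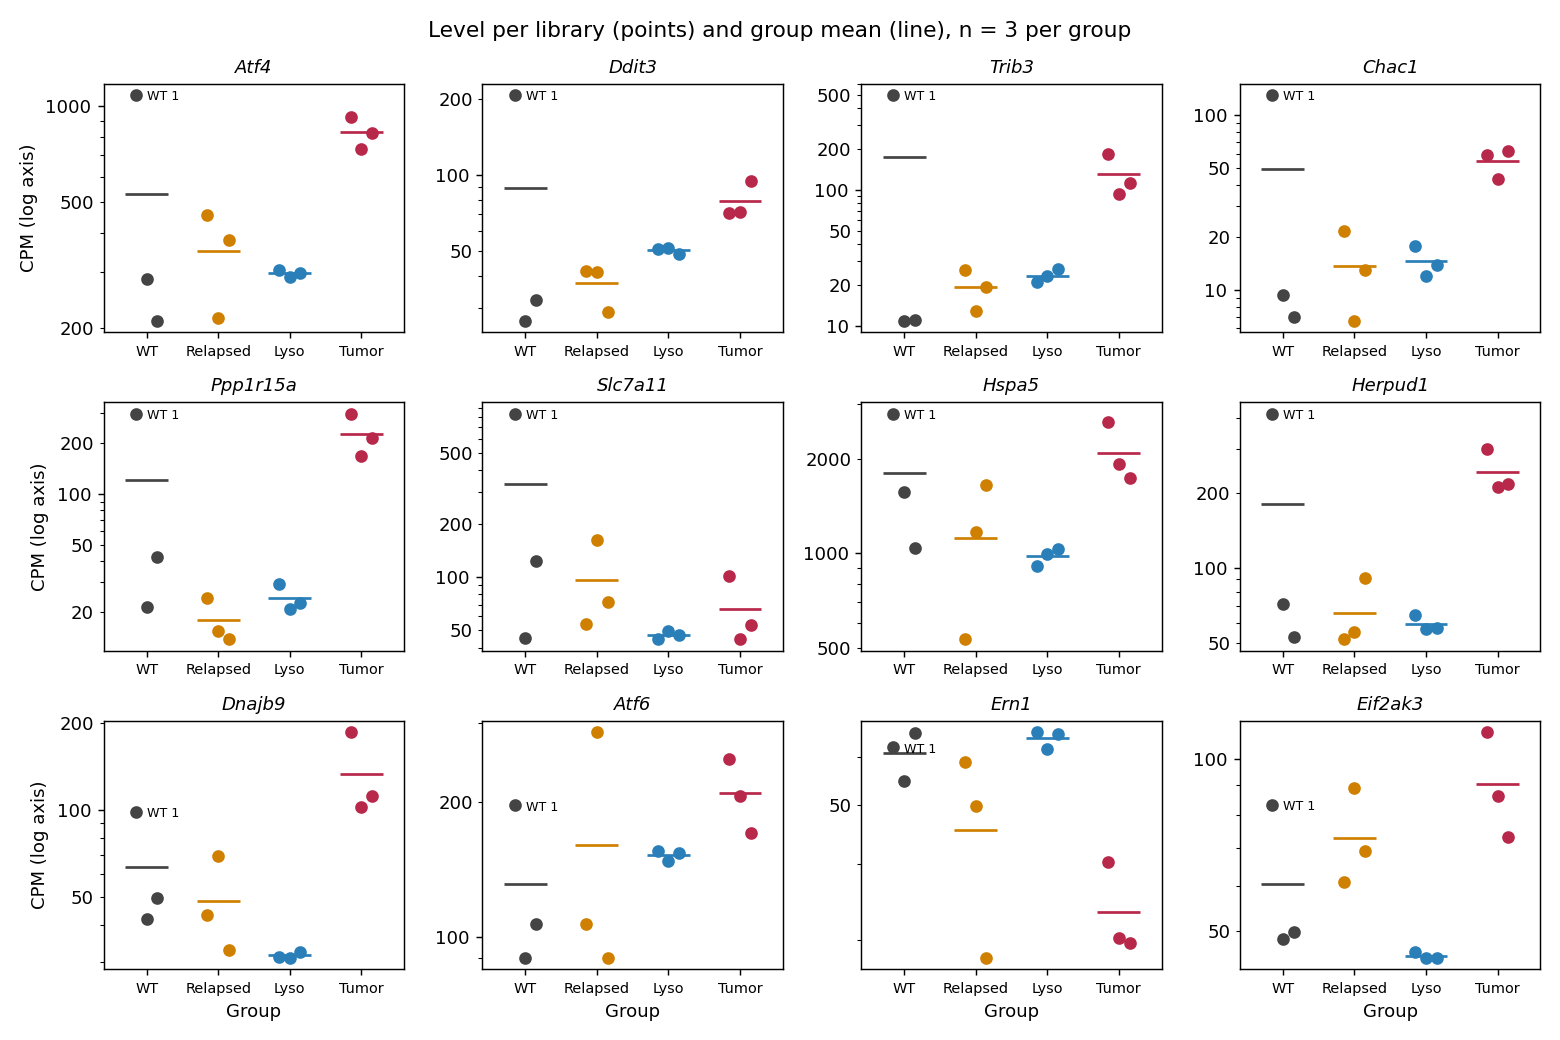
CPM of 12 genes on a log axis, with 1 point per library, a line at the mean of the 3 libraries of each group and WT 1 labelled. For Atf4, Trib3, Chac1, Ppp1r15a and Herpud1 the Tumor points sit far above the Relapsed and Lyso points, and WT 1 sits at or above them.

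In Tumor against all 3 WT libraries, 0 of the 17 ATF4 branch genes passed the test in either direction, at a background of 12.1% of all genes higher and 6.94% lower (edgeR's quasi-likelihood test, Benjamini-Hochberg adjusted p under 0.05). Unadjusted, 2 of the 17 had an edgeR p under 0.05, beside 4791 of all 14924 genes tested. The median log2 fold change of the branch was 0.05, beside 0.00 over all genes tested. Atf4 differed by 0.66 ± 0.47 (log2, SE, edgeR adjusted p = 0.368). Among the other members, Dnajb9 rose and Ern1 fell, so 1 of 37 was higher and 1 lower.

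Without WT 1 the same comparison gave 12 of 17 ATF4 branch genes higher and 0 lower, at a background of 15% of 15355 genes higher and 9.18% lower, and the median log2 fold change of the branch was 1.24, beside 0.02 over all genes. Trib3 rose by 3.54 ± 0.36 (log2, SE, edgeR adjusted p = 4.51e-05), Nupr1 by 3.42 ± 0.45 and Chac1 by 2.83 ± 0.44. Ppp1r15a rose by 2.72 ± 0.33, Atf4 by 1.73 ± 0.27 (edgeR adjusted p = 0.000793) and Ddit3 by 1.40 ± 0.19. Of the enzymes, asparagine synthetase (Asns, 1.47 ± 0.23) and the mitochondrial one-carbon enzyme Mthfd2 (0.84 ± 0.28) rose, whereas Psat1 and Phgdh of serine synthesis and Shmt2 did not pass, at 0.25, 0.65 and 0.60. Both chains of the large neutral amino acid transporter rose, Slc7a5 by 1.24 ± 0.24 and Slc3a2 by 1.11 ± 0.19, while Slc7a11 was at -0.41 ± 0.48 (edgeR adjusted p = 0.573). Sesn2, a leucine-sensing inhibitor of mTORC1, rose by 1.14 ± 0.26 and the factor Atf5 by 1.30 ± 0.32, and Cebpg, a dimer partner of ATF4, was at 0.42 ± 0.15 (edgeR adjusted p = 0.0562). The fibroblast markers and immediate early genes given above are high in the same 3 Tumor libraries, and their part in this difference was not tested.

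**Figure D3:**
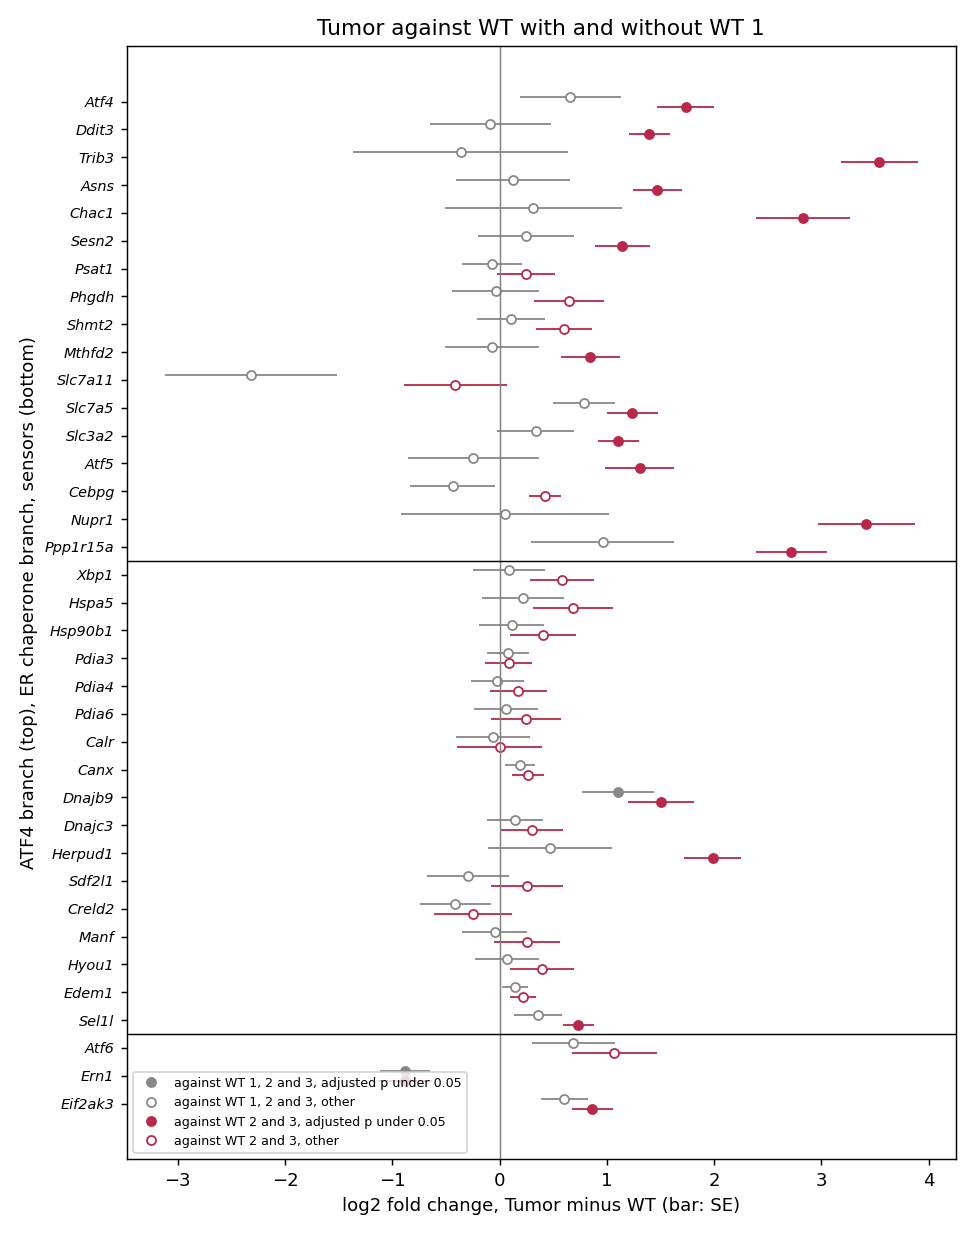
Log2 fold change of Tumor against WT with its SE for the 37 genes, in grey with all 3 WT libraries and in red without WT 1, filled where the edgeR adjusted p is under 0.05. In grey 2 genes are filled, Dnajb9 and Ern1, and in red 17, of which 12 belong to the ATF4 branch.

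In the ER chaperone branch, Hspa5 (BiP, chr2:34771970-34777547), the main ER chaperone of the HSP70 family, was at 2801, 1571 and 1038 CPM in WT, 531, 1172 and 1650 CPM in ITF1, Rel and ITM, 913, 998 and 1031 CPM in Lyso, and 2628, 1932 and 1741 CPM in Tumor. Tumor overlapped with WT because of WT 1 and was above all other libraries. Xbp1 was at 268, 145 and 94.4 CPM in WT, 81.2, 185 and 177 CPM in Relapsed, 109, 104 and 111 CPM in Lyso, and 196, 168 and 167 CPM in Tumor, where these values sum the spliced and unspliced mRNA. Tumor against WT gave 1 of 17 genes higher, Dnajb9 (background 12.1%), and 0 lower (background 6.94%), with a median log2 fold change of 0.09. Without WT 1 it gave 3 of 17 higher (background 15%) and 0 lower (background 9.18%), with a median of 0.26. The share higher in this branch was thus near or below that of all genes. Hspa5 was then at 0.68 ± 0.37 (edgeR adjusted p = 0.208), Xbp1 at 0.58 ± 0.30 and Calr, the lectin chaperone of the ER lumen, at 0.00 ± 0.40, so at these SEs differences of this size were not resolved. The protein disulfide isomerases Pdia3, Pdia4 and Pdia6, the chaperones Hsp90b1, Hyou1 and Canx, the co-chaperones Dnajc3 and Sdf2l1, the secreted stress proteins Creld2 and Manf, and Edem1, which marks glycoproteins for degradation, lay between -0.25 and 0.40 without WT 1, and 0 of these 11 passed.

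The ER branch genes that rose in Tumor were Dnajb9 and, without WT 1, also Herpud1 and Sel1l. Dnajb9 (chr12:44205559-44210326), a co-chaperone of BiP that represses IRE1α, was at 98.5, 42.2 and 49.7 CPM in WT, 43.3, 69.6 and 32.8 CPM in ITF1, Rel and ITM, 31.2, 30.8 and 32.5 CPM in Lyso, and 185, 102 and 112 CPM in Tumor. All Tumor libraries were above all others. It rose by 1.10 ± 0.34 in Tumor against WT (log2, SE, edgeR adjusted p = 0.037). The call was lost without Tumor 1 (0.80, edgeR adjusted p = 0.145), Tumor 4 (0.0541), WT 2 (0.127) or WT 3 (0.138), and in a fit of the 2 groups alone (0.0688). Herpud1, which gathers the degradation machinery at the ER membrane, was at 415, 71.4 and 52.8 CPM in WT, 51.6, 55.0 and 90.8 CPM in Relapsed, 65.0, 56.9 and 57.3 CPM in Lyso, and 299, 211 and 217 CPM in Tumor. Its difference from WT was 0.47 ± 0.57 with WT 1 and 1.99 ± 0.27 without it (edgeR adjusted p = 0.623 and 0.000324). Sel1l, the scaffold of the ubiquitin ligase that clears ER proteins, rose by 0.73 ± 0.14 without WT 1.

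The 3 sensors each had a pattern of their own. Ern1 (chr11:106394650-106487852) was at 62.3, 54.9 and 65.7 CPM in WT, 58.9, 49.8 and 28.0 CPM in ITF1, Rel and ITM, 65.9, 61.9 and 65.5 CPM in Lyso, and 40.3, 30.2 and 29.7 CPM in Tumor. WT 1 lay among the other WT libraries here. Ern1 fell by 0.88 on the log2 scale in Tumor against WT (SE 0.23, edgeR adjusted p = 0.018) and by 0.88 without WT 1 (SE 0.25, edgeR adjusted p = 0.024). With all WT libraries the call was lost without Tumor 3 (edgeR adjusted p = 0.075), Tumor 4 (0.0723) or WT 3 (0.0706). Eif2ak3 was at 83.2, 48.6 and 49.8 CPM in WT, 60.9, 89.0 and 69.0 CPM in Relapsed, 46.0, 44.9 and 44.9 CPM in Lyso, and 111, 86.4 and 73.2 CPM in Tumor, with 0.60 ± 0.22 in Tumor against WT (edgeR adjusted p = 0.072) and 0.86 ± 0.19 without WT 1 (edgeR adjusted p = 0.00656). Of its exonic bases, 8.0% overlap with a gene on the opposite strand. Atf6 was at 196, 89.9 and 107 CPM in WT, 107, 286 and 89.7 CPM in ITF1, Rel and ITM, 155, 148 and 154 CPM in Lyso, and 249, 206 and 171 CPM in Tumor. Rel alone among the Relapsed lines was above every Tumor library. Atf6 did not pass in Tumor against WT with WT 1 (0.69 ± 0.39) or without it (1.07 ± 0.40, edgeR adjusted p = 0.0698).

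Tumor can also be set against the groups that do not include WT 1, although these comparisons share their estimate of spread with it. In Tumor against Lyso, 10 of 37 members were higher (background 14.2%) and 1 lower (background 10.5%). The 4 of the ATF4 branch were Ppp1r15a (3.21 ± 0.71), Atf4 (1.47 ± 0.48, edgeR adjusted p = 0.0393), Slc7a5 (1.25 ± 0.29) and Psat1 (0.84 ± 0.28). The 5 of the ER branch were Dnajb9 (2.07 ± 0.34, edgeR adjusted p = 0.000702), Herpud1 (2.02 ± 0.59), Sel1l (0.85 ± 0.22), Canx (0.43 ± 0.14) and Edem1 (0.35 ± 0.12). Eif2ak3 was higher by 0.99 ± 0.21, and Ern1 fell by 0.96 on the log2 scale (SE 0.23). Of these calls, Atf4, Psat1 and Canx were lost on leaving out any 1 of the 6 libraries (edgeR adjusted p from 0.0725 to 0.104, 0.057 to 0.168 and 0.0552 to 0.147), and Atf4 also in DESeq2 (adjusted p = 0.0522). Edem1 was lost on leaving out any 1 Lyso library, Tumor 1 or Tumor 3 (0.0944 to 0.185), Herpud1 on leaving out any 1 Lyso library or Tumor 1 (0.0678 to 0.0769), and Sel1l without Lyso 1, Lyso 3 or Tumor 1 (0.0512 to 0.0641). Canx and Edem1 were also lost without a filter on low counts, and Edem1 with thinning. Psat1 missed at a minimum of 10 counts (0.0504). Median log2 fold changes were 1.04 in the ATF4 branch and 0.59 in the ER branch, beside 0.00 over all genes.

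The number of calls in Tumor against Lyso moved with the libraries that set the spread. With WT 1 out of the shared fit it was 22 higher (background 16.8%) and 1 lower (background 13.3%), with 13 genes of the ATF4 branch and 8 of the ER branch, among them Hspa5 (1.09 ± 0.33, edgeR adjusted p = 0.0257), Hsp90b1, its HSP90-family counterpart, and Hyou1, a large ER chaperone. In a fit of the 2 groups alone it was 34 higher (background 24.6%) and 1 lower (background 22.2%). Leaving out 1 Lyso library gave 4 or 5 higher, and leaving out Tumor 1 or Tumor 3 gave 4 and 6. Over all genes, 1674 of 15362 were higher without Lyso 1, 1632 of 15405 without Lyso 2 and 1571 of 15361 without Lyso 3. Without Tumor 1 it was 1660 of 15225, and without Tumor 3 it was 1552 of 15239.

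In Tumor against Relapsed, 4 of 37 were higher (background 11.8%) and 0 lower (background 7.74%). These were Ppp1r15a (3.66 ± 0.72, edgeR adjusted p = 0.00303), Herpud1 (1.88 ± 0.58, edgeR adjusted p = 0.0387), Dnajb9 (1.45 ± 0.33) and Slc7a5 (1.21 ± 0.29). The call of Herpud1 was lost on leaving out any of ITF1, Rel, Tumor 1, Tumor 3 or Tumor 4, with edgeR adjusted p from 0.0722 to 0.111. Without WT 1 in the fit 15 were higher (background 15.1%) and 0 lower (background 9.78%), 12 of them in the ATF4 branch and 3 in the ER branch. Without ITM 10 were higher and 1 lower, beside 1925 higher and 1399 lower of all 15398 genes in that fit. All 3 Tumor libraries were above all 6 Lyso and Relapsed libraries for 10 of 17 ATF4 branch genes and 4 of 17 ER branch genes (Hspa5, Dnajb9, Herpud1 and Sel1l), against 15.2% of all genes tested. Median log2 fold changes were 1.004 in the ATF4 branch and 0.33 in the ER branch, beside -0.01 over all genes. The fibroblast markers, the summed melanocyte markers and the immediate early genes differ between the same groups, and their part in these results was not tested.

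**Figure D4:**
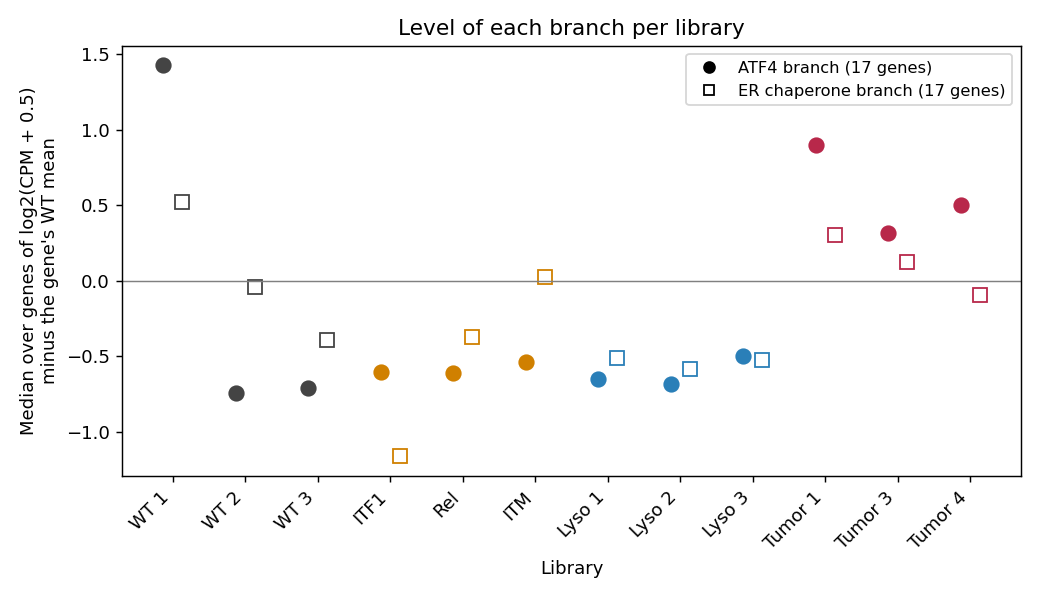
Level of each branch per library as the median over its 17 genes of log2(CPM + 0.5) minus the gene's mean in WT, with filled circles for the ATF4 branch and open squares for the ER chaperone branch. WT 1 is highest in both, Tumor 1 is next, and ITF1 is the lowest square.

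In cells incubated with T-cell granules no member passed edgeR's test against WT, with 0 higher (background 3.5%) and 0 lower (background 1.21%). Of the 37, 16 had an unadjusted p under 0.05, beside 2789 of all 14924 genes tested. DESeq2 called 2 lower, Psat1 and Slc7a11 (background 1.96%). Without a filter on low counts edgeR called 20 lower (background 1.8%). The 3 Lyso libraries lay close together, with Atf4 at 298 ± 7.29 CPM (SD, n = 3). The median log2 fold change was -0.91 in the ATF4 branch and -0.63 in the ER branch with WT 1, and 0.07 and -0.33 without it. Without WT 1, 1 gene was higher (background 4.02%) and 0 lower (background 1.94%). This was Ddit3, at 0.75 ± 0.18 (edgeR adjusted p = 0.0332). That call was lost on leaving out any further library of the 2 groups, with edgeR adjusted p from 0.0794 to 0.217, and with total count scaling (0.0575).

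In the Relapsed lines no member passed edgeR's test against WT either, with 0 higher (background 0.0134%) and 0 lower (background 0.0268%). An unadjusted edgeR p under 0.05 was found for 6 members, beside 1636 of all 14924 genes tested. DESeq2 called 1 lower, Ppp1r15a (background 0.486%), and edgeR without a filter on low counts called 10 lower (background 0.59%). Without WT 1 the counts were 0 (background 0.0847%) and 0 (background 0.163%). Then 4 members had an unadjusted p under 0.05, beside 2282 of 15355 genes. The lines differed among themselves in the ER branch, where the median of log2 levels relative to WT was -1.16 in ITF1, -0.38 in Rel and 0.02 in ITM. ITF1 was the lowest of all 12 libraries for Hspa5, and its levels of Creld2 (40.5 CPM) and Sdf2l1 (38.6 CPM) were below the 133 and 105 CPM of ITM. In the ATF4 branch these medians were -0.61, -0.61 and -0.54, and relative to WT 2 and WT 3 alone they were 0.30, 0.07 and 0.58. With 1 library per line, a difference between lines has no replicate check.

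Lyso against Relapsed gave 0 higher (background 4.87%) and 0 lower (background 2.81%), with 1 lower in DESeq2 (background 3.15%). Unadjusted, edgeR gave 3 members a p under 0.05, beside 3334 of all 14924 genes tested. Without WT 1 in the fit 0 were higher (background 6.52%) and 2 lower (background 4.17%), Psat1, which fell by 0.82 on the log2 scale (edgeR adjusted p = 0.0486), and Eif2ak3, which fell by 0.68 (edgeR adjusted p = 0.018).

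Within a library the members also differ in abundance, and the branches overlap. Per kilobase of exon, WT 2 and WT 3 averaged 540 RPKM for Calr, 362 for Hsp90b1, 328 for Pdia3 and 308 for Hspa5, whereas the sensors stood at 7.38 (Ern1), 8.16 (Eif2ak3) and 10.7 RPKM (Atf6). Atf4 mRNA was at 106 RPKM there, far above its targets Nupr1 (1.52), Chac1 (4.96) and Trib3 (5.22).

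Genes of the same pathways outside the 37 were counted from lists chosen with earlier results known. Over all genes in Tumor against WT, 12.1% were higher and 6.94% lower with WT 1, and 15% higher and 9.18% lower without it. For cytosolic tRNA synthetases and tRNA export, which ATF4 drives, WT 1 was the highest library for 13 of 13 genes. Of these, 0 passed in Tumor against WT, and 9 were higher and 0 lower without WT 1, with the smallest p for Sars (0.92 ± 0.16, edgeR adjusted p = 0.00158), Aars and Xpot. Of 16 tested genes of amino acid transport and metabolism, 1 was higher with WT 1, the glutamine transporter Slc38a2 (0.87 ± 0.24, edgeR adjusted p = 0.0232), and 10 without it, among them Slc1a5 (1.24 ± 0.15) and mitochondrial PEP carboxykinase, Pck2 (2.31 ± 0.31). Of 14 regulators and further targets of the ATF4 arm, 4 were higher with WT 1 and 8 without it. Atf3 rose by 2.56 ± 0.69 with WT 1 (edgeR adjusted p = 0.02), and it is also an immediate early gene. Fgf21, a secreted hormone, had 23 to 45 counts in the Tumor libraries and 0 in the other 9, a mean at least 5.12-fold higher than the floor of 3 counts in WT 1.

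Lists of the ER arm were counted in the same way, beside the same shares over all genes (12.1% higher with WT 1 and 15% without it). Of 14 ER folding enzymes 0 passed with WT 1 and 2 were higher without it, Ero1l (1.55 ± 0.50) and Serp1. Of 16 genes of ER import and glycosylation 0 passed in either fit. Of 12 degradation genes, Derl2 fell by 0.52 on the log2 scale with WT 1 (edgeR adjusted p = 0.0232), and 2 were higher and 1 lower without it. Of 8 ER signaling genes Creb3l1, a membrane-bound factor that drives collagen secretion and is used by fibroblasts, rose by 2.67 ± 0.34 (edgeR adjusted p = 0.000179), at 37.1, 23.4 and 21.7 CPM in Tumor against at most 5.66 CPM in the other libraries.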

How the data were processed

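The authors trimmed reads with fastp 0.19.6, aligned them to GRCm38 with STAR 2.7.1a and deposited raw counts per gene, without normalization. Strand setting and annotation release are not given in the sources used here. Symbols, positions and exonic lengths come from GENCODE for GRCm38. Members and gene lists were chosen with earlier results of these data known. From the deposited counts, edgeR 4.0.16 (R 4.3.3) was fitted to all 12 libraries (TMM, filterByExpr by group, glmQLFit, glmQLFTest, Benjamini-Hochberg over 14924 genes), and a gene was called at an adjusted p under 0.05. Fold changes are log2, with SE from the F statistic. The fit was tested on simulated data in which no control library stood apart, so that test does not cover the effect of WT 1. Floors of 3 counts cover counting error only. Named genes were all members called against WT, with library values for called members past a log2 fold change of 1, for Atf4, Ddit3, the sensors, Xbp1 and Hspa5, and, outside that rule, for members called without WT 1. Of the other lists, at most 3 genes each with the smallest p were named. The study's methods used DESeq2, run here (1.42.0) as an alternative, with RLE and total count scaling, other count filters, thinning to 1667398 counts, WT of similar depth, the compared groups alone, a replicate block and each library left out. No pairing of libraries by replicate number was seen. Promoter motifs were searched with Python 3.11.15.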

Additional observations from a re-analysis of the deposited data

How the results depend on the processing

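The counts of members called depended on WT 1, on the filter on low counts and on the groups in the fit. In Tumor against WT, 1 member was higher and 1 lower. Among the alternatives, 2 were higher in DESeq2, 2 with the replicate block and 5 with no filter. None was higher with WT of similar depth, here the same fit as leaving out WT 3, or with only the compared groups fitted. Leaving out single libraries gave 0 to 16 higher and 0 to 2 lower, with 16 higher without WT 1. With no filter 2 were lower, and with a log2 fold change over 1 required, 0 were lower. Against WT 2 and WT 3, where 16 were higher, leaving out a further library gave 10 to 17 higher and 0 to 1 lower, requiring the fold change left 0 lower and no filter gave 2 lower. Of these 17 calls 10 kept their side of the threshold under every alternative run, and 7 (Sesn2, Mthfd2, Slc7a5, Atf5, Dnajb9, Ern1 and Eif2ak3) lost it at least once. In Lyso against WT, 2 were lower in DESeq2 and 20 with no filter, and leaving out libraries gave 0 to 1 higher and 0 to 2 lower. In Relapsed against WT, 1 was lower in DESeq2, 10 with no filter, and 0 to 1 on leaving out libraries. In Lyso against Relapsed, 1 was lower in DESeq2, with total count scaling and in the compared groups alone, 4 with no filter, 2 without WT 1 in the fit, and 0 to 1 on leaving out libraries. In Tumor against Relapsed, 13 were higher in the compared groups alone, 15 without WT 1 in the fit and 17 with no filter, leaving out libraries gave 3 to 10 higher and 0 to 1 lower, and no filter gave 1 lower. In Tumor against Lyso, 5 were higher and 0 lower with the fold change required, 21 higher with no filter, 22 without WT 1 in the fit, 34 in the compared groups alone, and 4 to 7 on leaving out libraries. Over all 28974 genes, no filter called 2172 higher in Tumor against WT, 2223 in Tumor against Relapsed and 2479 in Tumor against Lyso. The compared groups alone called 1395 of 13892 genes higher in Tumor against Relapsed. Leaving out single libraries called 1223 to 2304 genes higher in Tumor against WT. Such fits called 1314 to 1925 higher in Tumor against Relapsed and 1552 to 1705 in Tumor against Lyso. Against WT 2 and WT 3 they called 810 to 1809 higher in Tumor. They called 40 to 298 lower in Lyso against WT and 0 to 95 in Relapsed against WT. In Lyso against Relapsed, 109 to 856 were lower. DESeq2 called 1862 of 17691 genes higher in Tumor against WT. The cause of the shifts in members called was not tested.

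Signs turned for genes that passed no test with all libraries. WT of similar depth was WT 3 alone for Relapsed and Lyso, so those values rest on a single control library. For Tumor it was WT 1 and WT 2, the same fit as leaving out WT 3. With this setting, Relapsed against WT gave 0.73 for Atf4, 0.21 for Ddit3, 0.65 for Xbp1 and 0.11 for Hspa5. Lyso against WT gave 0.48 for Atf4, 0.64 for Ddit3, 0.18 for Xbp1 and -0.039 for Ern1. Tumor against WT gave -0.21 for Xbp1 and -0.051 for Hspa5. The Relapsed and Lyso values also lack WT 1, so an effect of depth cannot be told apart from its removal. Total count scaling gave -0.025 for Ern1 in Lyso against WT. On leaving out libraries, Relapsed against WT ranged from -0.96 to 0.49 for Atf4, -1.62 to 0.30 for Ddit3, -0.48 to 0.32 for Xbp1, -0.40 to 0.69 for Atf6 (below 0 without Rel) and -0.69 to 0.051 for Dnajb9. Lyso against WT ranged from -1.18 to 0.27 for Atf4 and -1.17 to 0.75 for Ddit3, and Tumor against WT from -0.53 to 1.40 for Ddit3, -0.21 to 0.58 for Xbp1 and -0.051 to 0.68 for Hspa5.

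No pairing by the replicate numbers shared by WT, Lyso and Tumor was seen, as deviations of same-numbered libraries correlated by -0.008 to 0.065. Such correlations over all genes tested cannot exclude a shared day or batch. With the replicate block, Lyso against WT had 0 higher and 0 lower, Tumor against WT 2 higher and 1 lower, and Tumor against Lyso 10 higher and 1 lower, where the block lost Atf4 (edgeR adjusted p = 0.102), Canx (0.0754), Herpud1 (0.0645) and Edem1 (0.0661). Over the 13084 genes in this fit, 1278 were higher and 477 lower in Tumor against WT, and 1481 and 982 in Tumor against Lyso. In Lyso against WT these counts were 577 and 192. Depth limits Nupr1 most, with 3 counts in WT 2.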
